A study of Mus musculus with 4 samples.

Results

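The genes described here are 69 mouse genes that were read in cells with an MLL-ENL fusion and were nearly silent in cells whose fusion lacks the YEATS domain of ENL. They were selected on the counts themselves: a gene needed at least 50 expected counts in each of the 2 MLL-ENL libraries and a sum of at most 10 over both libraries of the mutant. Of 55426 genes in the table, 10576 reached 50 counts in each MLL-ENL library, and 79 of these (0.747%) also met the ceiling in the mutant. Of the 79, 10 were left out by name (Eya1, Csn2, Rasgrf2, Rasal2, Tgfb2, Vldlr, H2-Ab1, Thy1 or Phlda3 where they met the thresholds, and 2 genes whose names start with Xlr), which left the 69. The counts that chose the genes are therefore given as a description with no test, and tests are given only for genes that the choice did not use, such as neighbours on the chromosome.

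RNA was taken from mouse Lineage- bone marrow cells, that is cells depleted of mature blood lineages, which the labels describe as transformed haematopoietic stem and progenitor cells (HSPCs) kept in culture. Both groups carried an MLL-ENL fusion. In the group called MLL-ENL dYEATS here, the ENL portion consisted of residues 372 to 559, so the mutant lacks all ENL sequence before residue 372 and not the YEATS domain alone. Each group had 2 libraries, described in the series' design text as technical replicates; p-values then measure only the spread between libraries, and genotype and line cannot be told apart.

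MLL is a histone methyltransferase that holds developmental genes active, and in leukaemia its N-terminal part is joined to partners such as ENL. ENL belongs to the super elongation complex, which releases paused RNA polymerase II, and its YEATS domain reads acylated lysines on histone H3. Genes that lie side by side can share a stretch of open or closed chromatin, so the neighbours of a silenced gene are commonly examined with it.

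The promoter sequences of 6 of the genes are shown first, because the near-silent genes had promoters of very unlike composition. Each is the 250 bases before the start site in RefSeq's annotation of GRCm38.p6, printed 5′ to 3′ on the strand of the gene, with CpG dinucleotides in capitals. The genes are Cntln (chr4:84884059-84884308, plus strand), Rai14 (chr15:10714099-10714348, minus strand), Gcnt4 (chr13:96924463-96924712, plus strand), Mlph (chr1:90914850-90915099, plus strand), Cryzl2 (chr1:157458318-157458567, plus strand) and Aldh1a7 (chr19:20727557-20727806, minus strand).
Cntln: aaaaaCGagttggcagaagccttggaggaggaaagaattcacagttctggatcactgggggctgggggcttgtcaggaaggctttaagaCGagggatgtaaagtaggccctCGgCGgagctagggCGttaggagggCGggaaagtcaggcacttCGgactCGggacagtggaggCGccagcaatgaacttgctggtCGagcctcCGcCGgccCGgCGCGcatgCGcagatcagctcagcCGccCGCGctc
Rai14: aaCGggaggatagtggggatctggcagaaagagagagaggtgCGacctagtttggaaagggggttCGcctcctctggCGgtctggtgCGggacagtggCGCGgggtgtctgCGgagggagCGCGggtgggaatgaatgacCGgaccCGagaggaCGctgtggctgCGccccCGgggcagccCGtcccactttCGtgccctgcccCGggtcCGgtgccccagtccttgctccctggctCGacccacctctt
Gcnt4: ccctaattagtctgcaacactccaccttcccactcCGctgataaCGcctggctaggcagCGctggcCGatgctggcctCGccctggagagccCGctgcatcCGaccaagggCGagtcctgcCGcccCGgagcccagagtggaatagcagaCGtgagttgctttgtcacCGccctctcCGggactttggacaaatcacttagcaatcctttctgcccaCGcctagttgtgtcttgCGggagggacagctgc
Mlph: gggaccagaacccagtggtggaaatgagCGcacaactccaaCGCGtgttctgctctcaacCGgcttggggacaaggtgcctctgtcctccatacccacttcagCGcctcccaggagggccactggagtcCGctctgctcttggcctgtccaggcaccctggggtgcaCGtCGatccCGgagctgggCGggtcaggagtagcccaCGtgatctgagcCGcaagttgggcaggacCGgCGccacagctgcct
Cryzl2: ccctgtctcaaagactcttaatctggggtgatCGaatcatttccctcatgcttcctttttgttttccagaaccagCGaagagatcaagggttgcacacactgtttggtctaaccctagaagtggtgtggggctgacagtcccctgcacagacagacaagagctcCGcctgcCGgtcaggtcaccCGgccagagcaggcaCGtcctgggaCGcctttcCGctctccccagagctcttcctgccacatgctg
Aldh1a7: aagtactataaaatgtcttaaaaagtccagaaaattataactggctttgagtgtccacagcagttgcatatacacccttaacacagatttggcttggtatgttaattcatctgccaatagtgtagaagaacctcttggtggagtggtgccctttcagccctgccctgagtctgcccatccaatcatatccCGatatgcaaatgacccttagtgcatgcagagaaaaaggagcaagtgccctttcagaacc
The Rai14 stretch held 20 CpGs, Cntln 19, Gcnt4 15, Mlph 14 and Cryzl2 8, and the Aldh1a7 stretch held 1. The ratio of observed to expected CpGs, where 1 is the number that the base composition would give, was 0.837 for Cntln and 0.0862 for Aldh1a7, at the 2 ends of these 6. The last 24 bases of the Gcnt4 stretch, the last 15 of Mlph and the last 6 of Aldh1a7 lie in an exon annotated by GENCODE. The RefSeq start of Rai14 lies 526 bases from its GENCODE start, so the Rai14 stretch falls inside the gene as GENCODE annotates it.

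Among the genes with most reads, Cntln, which encodes the centrosomal protein centlein, went from 1061 and 1412 expected counts in the MLL-ENL libraries to 0 and 0 in the MLL-ENL dYEATS libraries. Cntln (chromosome 4, 84884309 to 85131921, GRCm38) reached 39.6 and 50.2 CPM (counts scaled to a common library size with TMM factors) in MLL-ENL, at least 434-fold above the floor that 3 counts per library give. Nmral1, an NADPH-sensing redox protein on chromosome 16 (4710059 to 4719356), had 1092 and 948 counts against 0 and 2. Kctd17, an adaptor of cullin ubiquitin ligases on chromosome 15 (78428564 to 78439303), had 868 and 840 counts against 2 and 3. In these 3 genes no MLL-ENL library held fewer than 840 counts and no mutant library held more than 3. The ratio of scaled counts, MLL-ENL over MLL-ENL dYEATS, was 1078 for Nmral1 (95% exact interval 298 to 8907) and 361 for Kctd17 (154 to 1113); these intervals and all floors cover counting error only.

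**Figure D1:**
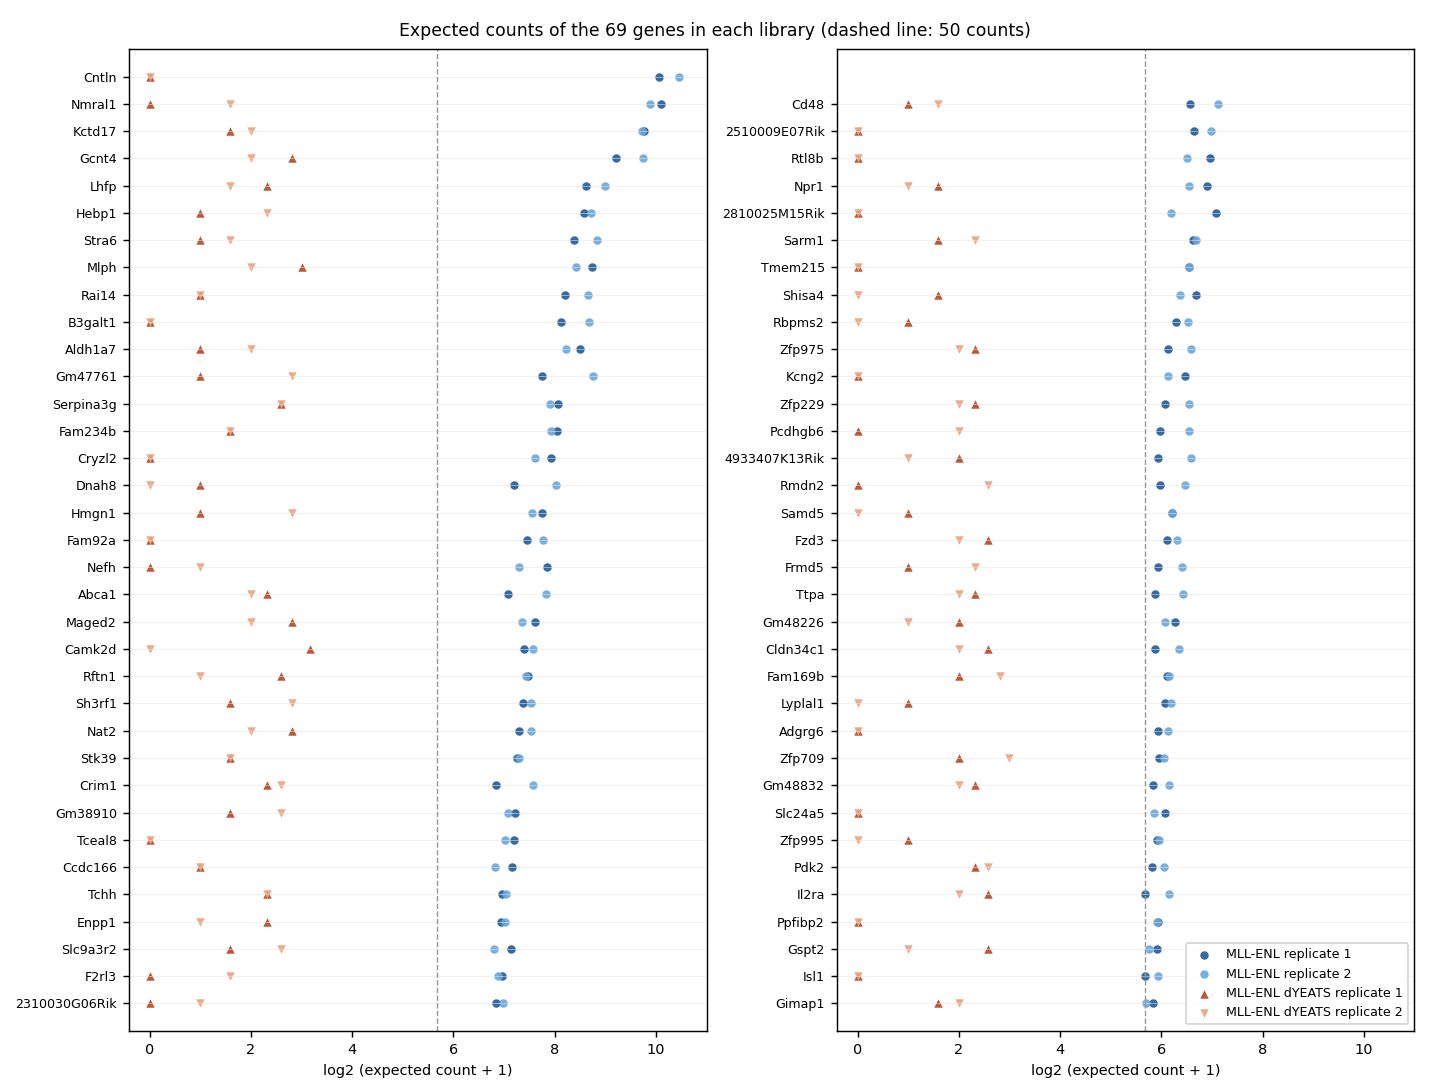
Expected counts of the 69 genes in each of the 4 libraries on a log2(count + 1) axis, ordered by mean CPM in MLL-ENL, circles for the 2 MLL-ENL libraries and triangles for the 2 MLL-ENL dYEATS libraries, with the dashed line at 50 counts. The groups are apart in every row because the genes were chosen so, and the highest count of any of them in 1 mutant library is 8.

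On a scale per transcript length, the authors' FPKM, the genes were at low levels in MLL-ENL too. Their median FPKM in MLL-ENL was 1.855 (range 0.21 to 35.9), against 17.5 over the 10576 genes with at least 50 counts in each MLL-ENL library. Nmral1 (38.0 and 33.7 FPKM) and Kctd17 (31.8 and 34.2) stood highest on this scale and did not differ beyond their spread. Hebp1 followed (17.1 and 22.2), and Lhfp (7.64 and 10.1) and Cntln (7.57 and 10.1) were close together below it. Fzd3 was the lowest at a mean of 0.21 FPKM. By counts, 12 of the 69 reached a mean of 10 CPM in MLL-ENL and 40 were under 5 CPM. The genes were 2.84% of the 2010 genes with 50 counts in each MLL-ENL library and a mean under 10 CPM, and 0.140% of the 8566 at or above it. A gene near the floor of 50 counts meets the ceiling at a smaller fold than a gene with many counts, so the thresholds themselves take more genes at low levels. In bulk RNA, fewer cells that express a gene and less RNA per cell cannot be told apart.

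The depth of the silence also varied. In both mutant libraries 14 of the 69 genes had 0 counts, 16 had 1 to 3 counts over both, and 39 had 4 to 10, of which 15 had 8 to 10. Just inside the ceiling stood Mlph, Serpina3g and Zfp709, each with a sum of 10. Just outside it stood Bpifc (181 and 181 counts against 5 and 6), Cdk14 (50 and 62 against 7 and 4) and Fgf10 (418 and 452 against 5 and 6), each with a sum of 11. The ceiling is one of counts, so a gene such as Fgf10 lies outside although 418 and 452 counts against 11 is a larger ratio than that of Serpina3g or Zfp709, which lie inside. Just inside the floor stood Il2ra (50 and 70 counts), Isl1 (50 and 60) and Gimap1 (56 and 51), and just outside it Tns1 (49 and 69), Zfp882 (49 and 105) and Bhlhb9 (48 and 61). All 69 passed the filter on low counts used for the test across genes, which the floor of 50 counts forces. In MLL-ENL, 37 of the 69 were higher in replicate 2 and 32 in replicate 1, and 62 differed by less than 1.5-fold between the 2 libraries.

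Besides Cntln, 13 genes were at 0 in both mutant libraries. B3galt1, a galactosyltransferase that builds glycan chains, had 280 and 406 counts in MLL-ENL, at least 120-fold above the floor. Cryzl2, which resembles quinone oxidoreductases, had 242 and 195 counts (at least 77.2-fold), and Fam92a, a membrane-bending protein at the base of cilia, had 174 and 218 (at least 68.9-fold). 2510009E07Rik had 99 and 125 counts, Tmem215 had 93 and 93, and Tceal8, Rtl8b and 2810025M15Rik had between 72 and 145 in each MLL-ENL library. The remaining 5 were close to the floor of 50 counts: Kcng2, a modulatory subunit of potassium channels (88 and 69), Adgrg6 (60 and 69), Slc24a5 (66 and 57), Ppfibp2, a liprin of cell adhesion sites (60 and 59), and Isl1 (50 and 60). Their bounds ran only from at least 19.3-fold for Isl1 to at least 27.7-fold for Kcng2. The floor that stands in for 0 mutant counts limits the bound that counts near 50 can give. Isl1 is a LIM homeodomain transcription factor of heart, motor neuron and islet development.

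Symbol patterns for the class of lipid, retinoid and redox enzymes matched 2 of the 69 genes (2.90%, against 1.33% of the 10576). They matched 0 of the 57 under 10 CPM (against 1.19%). The patterns take in Stra6, which is a receptor, and miss genes under 10 CPM such as Cryzl2 and Lyplal1. Stra6, the membrane receptor through which cells take retinol from its plasma carrier, had 332 and 455 counts in MLL-ENL against 1 and 2 (chromosome 9, 58063788 to 58153996). Aldh1a7, a mouse aldehyde dehydrogenase closely related to retinal dehydrogenases, had 363 and 296 against 1 and 3 (chromosome 19, 20692953 to 20727562). The ratios of scaled counts were 277 for Stra6 (95% exact interval 94.5 to 1347) and 174 for Aldh1a7 (67.7 to 641). The related Aldh1a1 was at 0 in all 4 libraries, and Aldh1a2 and Aldh1a3 had at most 6 counts in any library, so hardly any other member of that subfamily was detected. Outside the class, Ttpa, the carrier protein of vitamin E, had 58 and 85 counts against 4 and 3, and Abca1, which exports cholesterol to lipoproteins, had 134 and 226 against 4 and 3.

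The enzymes of glycans were Gcnt4 and B3galt1. Gcnt4, a branching enzyme of mucin-type O-glycans, had 589 and 860 counts in MLL-ENL against 6 and 3 in the mutant (chromosome 13, 96924689 to 96950906), a ratio of 170 (95% exact interval 89.4 to 373). Its relatives Gcnt1 and Gcnt2 were not called, where a gene is called at an adjusted p under 0.05 in edgeR's quasi-likelihood test over all genes. Gcnt1 lay at 12.1 and 13.2 CPM against 12.5 and 12.8 (edgeR adjusted p = 0.995). The relatives of B3galt1 that were tested, B3galt4, B3galt5 and B3galt6, were not called either, and the highest of them, B3galt6, lay at 24.5 and 22.01 CPM against 17.98 and 17.5 (edgeR adjusted p = 0.087). A p that misses the threshold does not show that these relatives were equal in both groups.

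Of the 3 G protein-coupled receptors, F2rl3, a protease-activated receptor of thrombin, had 124 and 117 counts against 0 and 2. Fzd3, a receptor for Wnt ligands, had 68 and 78 against 5 and 3, and the adhesion receptor Adgrg6 had 60 and 69 against 0 and 0. All 3 were low-level genes, between 2.24 and 4.63 CPM in the MLL-ENL libraries. Other proteins of the cell surface were Cd48, a SLAM-family ligand of lymphoid and myeloid cells (94 and 139 against 1 and 2), Il2ra, the alpha chain of the interleukin receptor that marks activated T cells (50 and 70 against 5 and 3), and Npr1, the receptor guanylate cyclase of natriuretic peptides (118 and 92 against 2 and 1). Enpp1, an ectoenzyme that makes pyrophosphate from ATP, had 122 and 129 counts against 4 and 1. Crim1, a membrane protein that binds bone morphogenetic proteins, had 114 and 190 against 4 and 5, and Lhfp, a tetraspan membrane protein, had 393 and 508 against 4 and 2. The membrane proteins Shisa4 (102 and 82 against 2 and 0), Fam234b (263 and 241 against 2 and 2), Cldn34c1 (58 and 81 against 5 and 3) and Pcdhgb6, a clustered protocadherin (62 and 93 against 0 and 3), had the same form.

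Some of the genes act in the cytoskeleton and in organelles that it moves. Mlph encodes melanophilin, which ties melanosomes to myosin, and had 427 and 341 counts against 7 and 3 (chromosome 1, 90915085 to 90951142). Rai14, an actin-bound ankyrin-repeat protein, had 293 and 404 against 1 and 1, a ratio of 368 (95% exact interval 102 to 3047). Slc24a5, an exchanger of calcium for sodium that is needed for pigment in melanosomes, was among the genes at 0 in the mutant. Dnah8, an axonemal dynein heavy chain, had 146 and 258 against 1 and 0, and Nefh, the heavy neurofilament chain of neurons, had 230 and 155 against 0 and 1. Tchh, a structural protein of hair follicles, had 123 and 130 against 4 and 4. Of these genes only Mlph and Rai14 had more than 10 CPM in either MLL-ENL library. Rmdn2, of a family of microtubule regulators, had 62 and 87 against 0 and 5, and Frmd5, of the FERM-domain family at the cell cortex, had 60 and 84 against 1 and 4.

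The kinases by symbol were Camk2d, a subunit of the calcium- and calmodulin-dependent kinase (167 and 189 counts against 8 and 0), and Stk39, a stress-responsive kinase that controls ion cotransporters (151 and 155 against 2 and 2). All 8 mutant counts of Camk2d came from 1 library, which is the highest count of any of the 69 genes in a mutant library. Sh3rf1, a ubiquitin ligase and scaffold of JNK signalling, had 166 and 183 against 2 and 6, and Sarm1, an NAD-cleaving enzyme of axon degeneration, had 98 and 102 against 2 and 4. Pdk2, a kinase that restrains pyruvate dehydrogenase, had 55 and 65 against 4 and 5. Rftn1, a lipid-raft protein, had 177 and 173 against 5 and 1, and Slc9a3r2, a scaffold of membrane transporters and itself no carrier, had 139 and 111 against 2 and 5. Hebp1, a haem-binding protein, had 381 and 420 against 1 and 4, Nat2, an arylamine acetyltransferase, had 157 and 183 against 6 and 3, and Lyplal1, a lysophospholipase-like enzyme, had 66 and 72 against 1 and 0. Serpina3g, an intracellular serine protease inhibitor of blood cells, had 267 and 239 against 5 and 5. The lowest ratio in this paragraph was that of Pdk2, 14.1 (95% exact interval 7.18 to 31.6). That the mutant counts of each gene lie below its MLL-ENL counts is fixed by the thresholds.

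In the nucleus, Hmgn1, a protein that binds nucleosomes and loosens chromatin, had 213 and 187 counts against 1 and 6. Its relatives Hmgn2 (824 and 691 CPM against 638 and 641) and Hmgn5 (89.0 and 57.2 against 69.4 and 73.6) were not called (edgeR adjusted p = 0.248 and 0.939). The 4 zinc finger genes were Zfp229 (66 and 92 counts against 4 and 3), Zfp709 (61 and 65 against 3 and 7), Zfp975 (69 and 95 against 4 and 3) and Zfp995 (59 and 61 against 1 and 0), all from the lowest part of the range. Zfp709 had the smallest ratio of the 69 genes, 13.3 (95% exact interval 7.01 to 28.4). Rbpms2, an RNA-binding protein, had 77 and 91 against 1 and 0, and Gspt2, a translation termination factor, had 59 and 53 against 5 and 1. Gspt1, its close relative, lay at 232 and 283 CPM against 364 and 358 and was not called (edgeR adjusted p = 0.0641). Reads can be shared between near-identical copies, so the values of zinc finger, serpin, Rtl8 and Hmgn genes carry that uncertainty.

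Genes without an annotated protein product were Gm47761 (214 and 429 counts against 1 and 6), Gm38910 (147 and 134 against 2 and 5), Gm48832 (56 and 70 against 4 and 3), Gm48226 (76 and 66 against 3 and 1), 4933407K13Rik (60 and 95 against 3 and 1) and 2810025M15Rik (134 and 72 against 0 and 0). Gm47761 and 2810025M15Rik differed most between the 2 MLL-ENL libraries of all 69 genes, in opposite directions and each by less than 2-fold. By annotation 3 of these 6 are lincRNAs, and the others are a lncRNA at a bidirectional promoter, a processed transcript and a transcribed processed pseudogene. The remaining 63 genes are protein-coding. Of these, those not yet named with counts are Ccdc166 (141 and 112 against 1 and 1), 2310030G06Rik (113 and 126 against 0 and 1), Samd5 (73 and 73 against 1 and 0), Fam169b (68 and 70 against 3 and 6), Maged2 (194 and 162 against 6 and 3) and Gimap1, a GTPase of lymphocytes (56 and 51 against 2 and 3).

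Sorted into 16 classes by patterns in their symbols, 34 of the 69 genes fell in a class and 35 in none, so no class holds most of them. The 3 G protein-coupled receptors were 4.35% of the genes, against 0.425% (45) of the 10576 genes that could have been chosen. Since low-level genes were chosen more often, the like share was taken under 10 CPM, where receptors were 5.26% of the 57 genes and 0.846% of all 2010. Zinc finger genes were 5.80% against 3.04%, and under 10 CPM 7.02% against 6.52%, so their share is near that of other low-level genes. Predicted and clone-named genes were 8 of the 69, or 12.3% against 22.2% under 10 CPM. Small GTPases and their regulators, with 238 genes among the 10576, held 0 of the 69, although Rasal2 and Rasgrf2 are of that kind and were left out by name. The class of other transcription factors, which leaves out the zinc finger genes, held 0 of the 69 among its 187 genes, and Isl1 is a transcription factor that the patterns miss. These shares rest on 0 to 8 genes a class and are given with no test.

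By chromosome, 7 of the 69 lay on chromosome 17, 6 on chromosome 1 and 6 on the X, and 0 on chromosome 5, which holds 677 of the 10576. The X-linked genes were Maged2, Tceal8, Rtl8b, 4933407K13Rik, Cldn34c1 and Gspt2, 8.70% of the genes against 2.97% of those that could have been chosen (10.5% against 3.28% under 10 CPM). The Xlr genes left out by name are not in this count. Rtl8b, a gene derived from a retrotransposon, had 123 and 90 counts against 0 and 0, and Tceal8, of a family of elongation-factor-like proteins, had 145 and 129 against 0 and 0. Xist, the RNA that coats the inactive X chromosome, moved with them: it had 2635 and 4019 counts in MLL-ENL and 95 and 72 in MLL-ENL dYEATS, a log2 fold change of -5.39 (SE 0.27, edgeR adjusted p = 0.000402). The Y-linked genes Ddx3y, Eif2s3y, Kdm5d and Uty were at 0 in all 4 libraries. Over all 396 tested X-linked genes, 13.6% were called lower and 7.58% higher, against 9.72% and 7.01% of autosomal genes. These shares include the 6 X-linked and 63 autosomal genes of the 69, whose loss the choice fixed. The X-linked share also includes Xist and the 2 Xlr genes, so it is not independent of the choice. The part of Xist in the X-linked genes was not tested.

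The genes were mostly scattered, and only 4 pairs of them lay within 500 kb of each other. Hebp1 and Fam234b on chromosome 6 (135137522 to 135198022 and 135197977 to 135244955) lie on opposite strands with GENCODE starts 45 bases apart, and their sums over both mutant libraries were 5 and 4 counts. Their bodies overlap by 46 bases, so reads may be shared between them. The annotations disagree here: the RefSeq start of Hebp1, used for its promoter window, lies 29807 bases from the GENCODE start. 2810025M15Rik and Cryzl2 on chromosome 1 are 38.3 kb apart on the same strand, with no other annotated gene between them, and both were at 0 in the mutant. B3galt1 and Stk39 on chromosome 2 (67565871 to 68122689 and 68210445 to 68472268) are 87.8 kb apart with their ends facing, and none of the 7 genes annotated between them was tested. Zfp229 and Zfp995 on chromosome 17 are 110 kb apart in a cluster of zinc finger genes. No other of the 69 genes had a second one within that distance.

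The values of other genes near the 69 were not used in choosing them, and a larger share of these neighbours than of all genes was lower in the mutant. Within 100 kb of a gene body there were 162 other tested genes around 49 of the 69. In edgeR's quasi-likelihood test 33 of them (20.4%) were called lower, 8 (4.94%) higher and 121 were not called, at an adjusted p under 0.05. Rasal2, one of the 33, meets the count thresholds and was left out by name, and without it 32 of 161 (19.9%) were called lower. Over all 13245 genes tested, 2235 were called (16.9%), 1303 of them lower (9.84%) and 932 higher (7.04%). The median log2 fold change of the neighbours was -0.16, against -0.01 over all genes tested. Among the 69, 26 had a neighbour called lower and 8 a neighbour called higher, 20 had tested neighbours of which none was called, and 20 had no tested gene within 100 kb. Of 584 other annotated genes within 100 kb, 297 were at 0 in all 4 libraries. Silent genes were common in the whole table too, where 18238 to 18360 of 55426 genes were detected per library. The 297 therefore do not show that these neighbourhoods were more silent than the rest of the genome.

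The share called lower was smaller at greater distance, which was not tested. It was 6 of 13, Rasal2 among them, for genes that overlap one of the 69, 20.5% of 83 at up to 50 kb, 15.2% of 66 from 50 to 100 kb, and 9.35% of 428 from 100 to 500 kb, where it was near the share over all genes. The share called higher was 1 of 13, 6.02%, 3.03% and 5.84% at these distances. The same count was made around other sets of genes, with the genes of a set counted where they neighbour each other. Around the 69 it was 39 of 168 (23.2%) called lower, of which 6 are genes of the 69 whose loss the choice fixed. It was 14.4% around the 782 other genes called lower by at least 2-fold, 6.80% around 555 genes called higher by at least 2-fold and 8.79% around genes that were not called. Around the genes called higher, 12.7% of neighbours were called higher. Sets chosen by their call include their own members in the same way, so these shares are not independent of the choice. Whether counting used the strand is not stated in these sources, and reads of overlapping or antisense genes cannot be told apart, which touches the 13 that overlap.

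**Figure D2:**
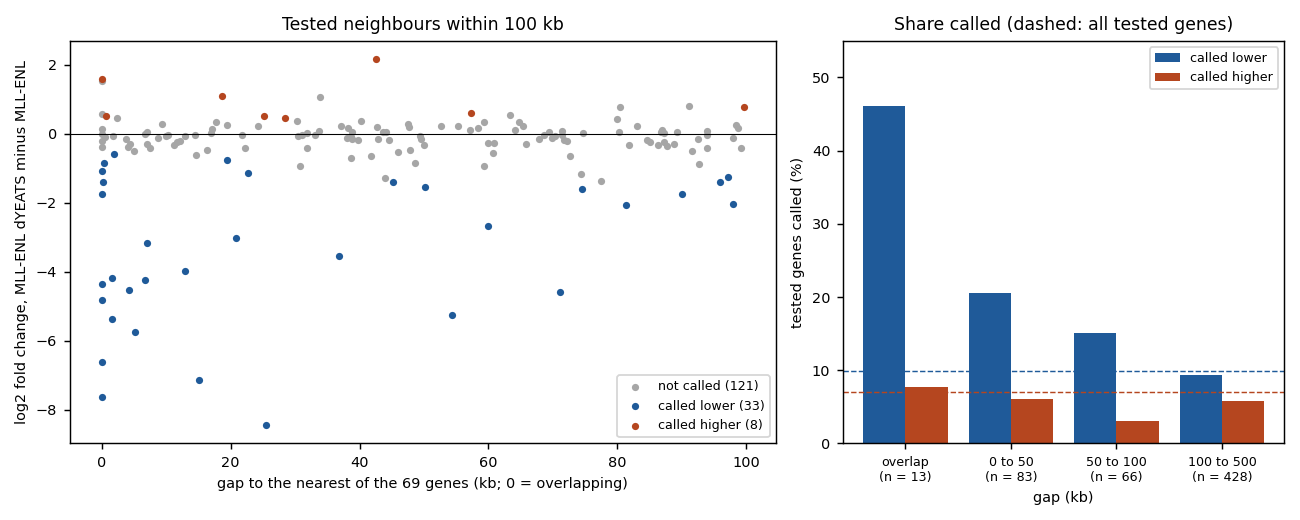
Left, log2 fold change (MLL-ENL dYEATS minus MLL-ENL) of the 162 tested neighbours by their gap in kb to the nearest of the 69 genes, coloured by call. Right, the percentage called lower (blue) and higher (red) by distance, with dashed lines at the shares over all tested genes, 9.84% and 7.04%; the lower share goes from 6 of 13 overlapping genes to 9.35% beyond 100 kb.

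At some loci the neighbours fell by much. Next to Stra6, Cyp11a1, the enzyme that begins steroid hormone synthesis, lay 36.8 kb away at 535 and 522 CPM in MLL-ENL and 44.8 and 45.5 in the mutant, a log2 fold change of -3.55 (SE 0.11, edgeR adjusted p = 0.000236). The next tested genes on the other side, Pml (60.4 and 90.1 against 82.5 and 80.8 CPM) and Stoml1 (18.9 and 13.8 against 12.1 and 12.3), were not called. Next to Mlph, Col6a3, a chain of collagen VI 71.1 kb away, went from 51.2 and 73.4 to 2.79 and 2.37 CPM (log2 fold change -4.59, SE 0.24, edgeR adjusted p = 0.000463). Rab17, a small GTPase of membrane transport 6.99 kb from Mlph, went from 2.69 and 1.10 to 0.102 and 0.314 CPM (edgeR adjusted p = 0.0331; 0.0682 by limma on log2(FPKM + 1)). Lrrfip1, beyond Rab17, lay at 188 and 233.9 CPM against 261 and 253 and was not called. Around both Mlph and Stra6, genes called lower and genes that were not called lay within the same 100 kb.

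At 3 loci outside the protocadherin gamma cluster a gene of the 69 overlaps a tested gene not among the 69 that was lower. Reads may be shared between them. Myef2, a repressor of myelin genes that overlaps the end of Slc24a5 on the opposite strand, went from 21.8 and 22.2 to 0.851 and 0.698 CPM (log2 fold change -4.82, SE 0.17, edgeR adjusted p = 0.000304). Gphn, the gephyrin scaffold of inhibitory synapses that starts 146 bases from the lncRNA Gm48226, went from 17.96 and 31.4 to 1.33 and 1.08 CPM (-4.35, SE 0.35, adjusted p = 0.00158). Rasal2, a Ras GTPase-activating protein that starts 243 bases from 2810025M15Rik, had 114 and 192 counts against 1 and 2, and is given with no test since it meets the thresholds itself. Both genes of each of these 3 pairs were at under 1.4 CPM in the mutant libraries.

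**Figure D3:**
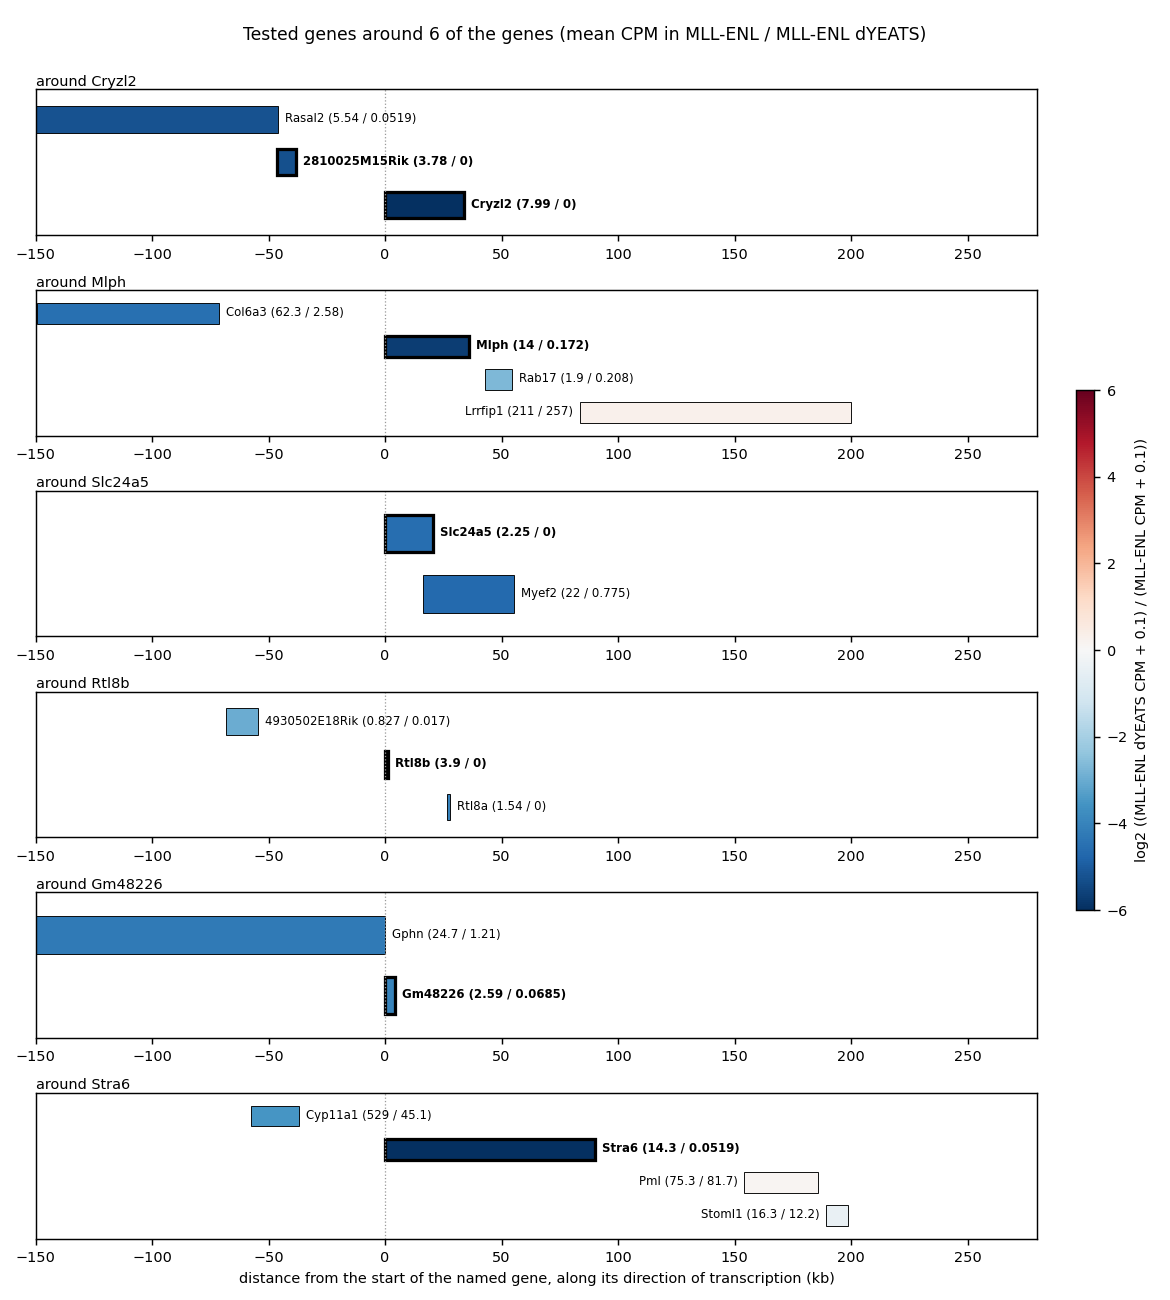
Tested genes around 6 of the 69 genes (bold outlines), by distance in kb from the start of the named gene along its direction of transcription; labels give mean CPM in MLL-ENL and in MLL-ENL dYEATS, and colour gives the log2 ratio with 0.1 CPM added to each. Long bodies are cut short on either side. The lower genes Cyp11a1, Col6a3, Myef2, Gphn and Rasal2 are blue beside their neighbours, and Pml, Stoml1 and Lrrfip1 are pale.

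Gm45705, 1.61 kb from F2rl3 on the same strand, had 32 and 57 counts against 2 and 0 (edgeR adjusted p = 0.00871). Genes with more counts that were lower included Mansc1, 1.53 kb from Gm38910 (26.1 and 40.2 against 1.87 and 1.78 CPM; log2 fold change -4.18, SE 0.27, edgeR adjusted p = 0.000811), and Rbm12b1, 6.68 kb from Fam92a (5.79 and 4.23 against 0.136 and 0.384 CPM; -4.25, SE 0.43, edgeR adjusted p = 0.00308). Beside Gimap1, the tested genes Gimap6 and Gimap9 were not called (edgeR adjusted p = 0.0773 and 0.266). In some other gene clusters more than 1 gene was lower. Beside Serpina3g, Serpina3f had 15 and 19 counts against 0 and 0 (edgeR adjusted p = 0.0111), beside Rtl8b, Rtl8a had 53 and 31 against 0 and 0 (0.0103), and beside Zfp229, Zfp760 had 46 and 68 against 0 and 2 (0.00471). Beside Zfp709, Zfp882 had 49 and 105 counts against 9 and 1 (edgeR adjusted p = 0.0197). The other zinc finger genes tested around Zfp229, Zfp820 and Zfp983, were not called, so not every tested gene of the cluster was called.

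The protocadherin gamma cluster on chromosome 18 went both ways. Beside Pcdhgb6, Pcdhgb4 had 18 and 30 counts against 0 and 0 (edgeR adjusted p = 0.0119), while Pcdhgb5 rose from 45 and 81 to 226 and 175 counts (log2 fold change 1.59, SE 0.30, edgeR adjusted p = 0.0216). Pcdhgb7 was not called (edgeR adjusted p = 0.754). By limma the adjusted p of Pcdhgb4 was 0.086 and that of Pcdhgc3 0.0525 on log2(FPKM + 1), and that of Pcdhgb5 0.0502 on log2(FPKM + 0.1). Genes of this cluster share their last exons, so the reads that separate them come from the first exon of each. Pcdhgc3, at the end of the cluster, went from 41.3 and 52.9 to 21.3 and 22.9 CPM (log2 fold change -1.09, SE 0.16, edgeR adjusted p = 0.00994).

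Neighbours called higher were fewer and mostly changed little. Extl3, a glycosyltransferase of heparan sulfate 42.6 kb from Fzd3, rose from 2.84 and 3.98 to 16.5 and 14.1 CPM (log2 fold change 2.16, SE 0.21, edgeR adjusted p = 0.00269). On the other side of Fzd3, Zfp395 fell from 47.3 and 50.1 to 18.02 and 18.8 CPM (log2 fold change -1.40, SE 0.11, edgeR adjusted p = 0.00157), and Fbxo16, at 13 and 14 counts against 0 and 1, was called lower by edgeR (adjusted p = 0.0154) but not by DESeq2 (adjusted p = 0.0553). Genes on the 2 sides of Fzd3 therefore moved in opposite directions. Fam83h, near Ccdc166, rose from 5.04 and 4.73 to 10.1 and 10.7 CPM (log2 fold change 1.09, SE 0.15, edgeR adjusted p = 0.00808). Timm17a, near Shisa4, went from 53.6 and 47.7 to 75.9 and 76.7 CPM, 1300002E11Rik from 3.88 and 3.49 to 6.23 and 6.42, and Wdr76 from 30.5 and 34.99 to 47.1 and 47.1. These and the other two, Tnfaip1 and Alg9, had log2 fold changes between 0.46 and 0.78, and each lost its call when either MLL-ENL dYEATS library was left out.

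Around several of the genes with most reads the neighbours were not called. The 6 tested genes near Nmral1 included Dnaja3, 2.36 kb away, at 64.5 and 72.1 CPM against 92.7 and 92.6 (edgeR adjusted p = 0.0568), and Hmox2, 7.01 kb away, at 75.9 and 63.6 against 57.4 and 56.5 (0.186); none of the 6 was called. The 3 tested genes near Rai14, which are Brix1, Dnajc21 and Rad1, and the 1 near Lhfp, Cog6, were not called either. Near Kctd17, Tst, a mitochondrial sulfurtransferase 22.7 kb away, fell from 43.8 and 32.8 to 18.02 and 16.7 CPM (log2 fold change -1.14, SE 0.17, edgeR adjusted p = 0.0116), while Mpst (55.3 and 38.1 against 30.5 and 30.8 CPM) and Csf2rb (211 and 254 against 238 and 235) were not called. Cntln, Gcnt4, B3galt1, Aldh1a7 and Gm47761 had no tested gene within 100 kb other than members of the 69. The genes with most reads thus include losses beside a called gene, losses beside genes that were not called, and losses with no other tested gene near.

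Genes that share a symbol stem, which does not always mean a shared family, were called about as often as genes in general. Of 98 tested genes whose symbols share a stem with one of 32 of the 69, 11 (11.2%) were called lower and 9 (9.18%) higher, near the 9.84% and 7.04% over all genes, and their median log2 fold change was 0.00. Stk32c, which shares the stem of Stk39, fell from 20.8 and 14.9 to 0.783 and 0.663 CPM (log2 fold change -4.61, SE 0.27, edgeR adjusted p = 0.000558). Pdk3, a relative of Pdk2, fell from 40.1 and 40.4 to 14.6 and 15.1 CPM (-1.44, SE 0.11, adjusted p = 0.00134), and F2rl2, a relative of F2rl3, from 43.8 and 58.0 to 22.8 and 24.5 CPM (-1.10, SE 0.17, adjusted p = 0.0117). In the other direction Fzd7, a relative of Fzd3, rose from 12.5 and 16.9 to 25.1 and 27.4 CPM (log2 fold change 0.84, SE 0.18, edgeR adjusted p = 0.0308), a call lost by limma and without MLL-ENL dYEATS replicate 2. Abca5, a relative of Abca1, rose from 0.373 and 0.462 to 1.43 and 1.501 CPM (1.797, SE 0.29, edgeR adjusted p = 0.0134), a call lost by limma. Camk2g, a relative of Camk2d, rose from 23.8 and 25.8 to 38.4 and 35.5 CPM (0.57, SE 0.12, edgeR adjusted p = 0.0297), a call lost when either mutant library was left out.

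A RefSeq promoter window of 300 bases (250 before and 50 after the start) was found for 53 of the 69. Their median ratio of observed to expected CpGs was 0.648, against 0.795 over the 8304 windows of genes with at least 50 counts in each MLL-ENL library, 0.695 over the 1381 of these under 10 CPM, and 0.384 over all 32851 windows. CpG-rich windows, with a ratio of at least 0.6 and a GC content of at least 50%, were 27 of 53 (50.9%), against 73.7%, 57.3% and 33.5%. The genes thus stood below expressed genes in general and nearer to those of low level. They ran from 0 in F2rl3 and Fam169b, which hold no CpG in the window, to 1.05 in Isl1 and 1.08 in Adgrg6. Of the 14 genes at 0 in both mutant libraries 11 had a window, with ratios from 0.269 in Slc24a5 to 1.08 in Adgrg6. Windows were not found for Nmral1, Kctd17, Gm47761, Fam92a, Nefh, Sh3rf1, Nat2, Ccdc166, 2810025M15Rik, Kcng2, Pcdhgb6, Fzd3, Ttpa, Gm48226, Gm48832 and Gspt2. As with Hebp1, the RefSeq start used for Stra6 lay far from its GENCODE start, by 65300 bases.

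**Figure D4:**
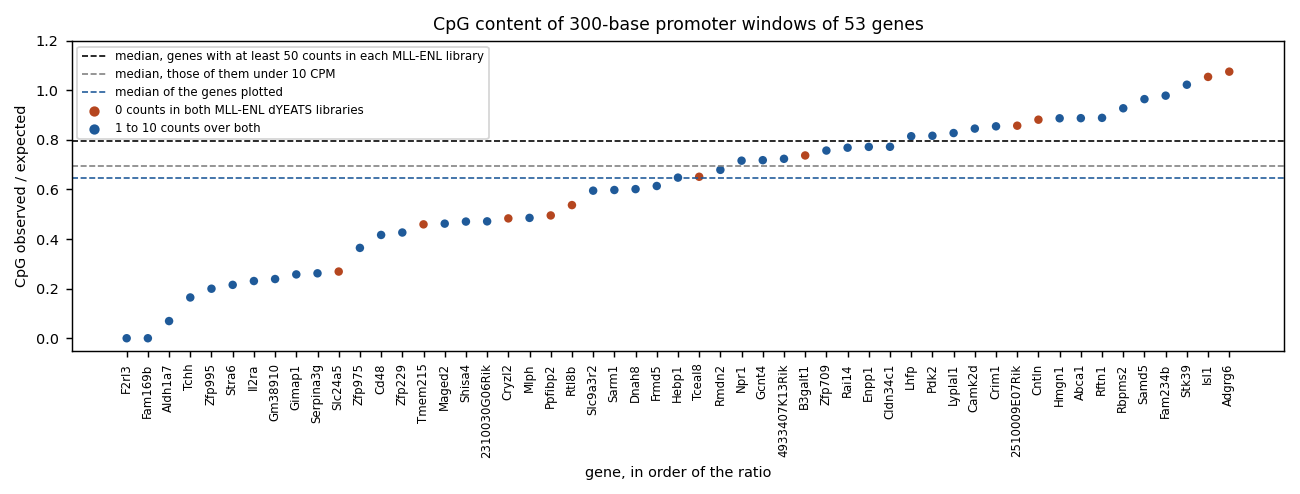
Ratio of observed to expected CpGs in the 300-base promoter windows of 53 of the 69 genes, in order of the ratio, with red points for genes at 0 in both MLL-ENL dYEATS libraries. Dashed lines give the medians, 0.648 for these genes, 0.695 for expressed genes under 10 CPM and 0.795 for all genes with 50 counts in each MLL-ENL library; the points cover the range from 0 to 1.08.

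The windows were searched on both strands for 12 short motifs, and a match is a description of letters, not of binding. The GATA motif AGATAA was in 12 of 53 windows (22.6%), against 5.92% of the 8304, 8.18% of those under 10 CPM and 11.2% of all windows. The 12 were those of Serpina3g, Tchh, F2rl3, 2310030G06Rik, Zfp975, 4933407K13Rik, Rmdn2, Cldn34c1, Fam169b, Slc24a5, Zfp995 and Isl1. The ETS motif CCGGAAG was in 4 windows (7.55%), against 21.3%, 14.3% and 8.86%, and the RUNX motif TGTGGT was in 12 (22.6%), against 12.5%, 15.4% and 16.8%. The CCAAT motif was in 17 (32.1%), against 40.1%, 41.8% and 37.4%. Motifs at shares within 5 percentage points of the genes under 10 CPM were the GC box GGGCGG (60.4% against 59.4%), the E-box CACGTG (9.43% against 8.18%), TATAAA (9.43% against 8.25%) and the TALE-homeodomain motif TGACAG (20.8% against 16.1%). The rest were in 0 to 2 windows each: the CRE motif TGACGTCA in 0, the AP-1 motif TGANTCA in 1, the PU.1 motif GAGGAAGT in 2 and the NRF1 motif in 2, of which 1 is the stretch of Cntln shown above. The median GC content was 61.7% in the 53 windows, 61.0% in the 8304 and 59.3% in those under 10 CPM, and the part of base composition in these shares was not tested.

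Checks of the whole series that touch these values were few. Total expected counts were 27812855 to 28814798 per library. The 2 MLL-ENL libraries were further apart than the mutant pair, with an SD of the log2 ratio over tested genes of 0.353 against 0.139. Of the haematopoietic marker list all 12 genes had counts, with a summed 7627 and 6795 CPM in MLL-ENL and 4397 and 4411 in the mutant, and the list went both ways. Of its 11 tested genes 5 were called lower (Kit, Mpo, Elane, Prtn3 and Cebpa), 2 higher (Spi1 and Csf1r) and 4 were not called (Ptprc, Itgam, Csf3r and Ctsg). Kit went from 50.4 and 66.9 to 2.62 and 3.91 CPM (edgeR adjusted p = 0.000681), and Spi1 from 168 and 183 to 244 and 241 (0.0404). Cd34 had no count in MLL-ENL and 0.102 and 0.105 CPM in the mutant. Of the T and NK cell markers 5 of 6 were at 0 in all libraries, and their sum was at most 0.0341 CPM, while Il2ra, Cd48 and Gimap1, known from lymphocytes, were read in MLL-ENL. Summed markers of B cells were at most 0.105 CPM, of erythroid cells at most 1.53, of megakaryocytes at most 0.851, of mast cells at most 8.55 and of stromal and endothelial cells at most 0.747. No list other than the haematopoietic one reached 10 CPM in any library. Transcripts of the fusion partners Kmt2a and Mllt1 were not called, but these reads do not tell which fusion a library carried.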

How the data were processed

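Poly(A)-selected RNA was sequenced in 4 libraries, 2 of MLL-ENL and 2 of MLL-ENL dYEATS cells, grouped by sample titles. Per the submitters' processing notes, STAR 2.7.8a, RSEM 1.3.3, cutadapt 2.3 and FastQC 0.11.8 were used with GRCm38. How strand and fusion reads were treated and which annotation release was used: not given in the sources used here. The authors deposited expected counts per gene (RSEM estimates, whole numbers in the file) and FPKM, which the authors scaled by transcript length and library size. The 69 genes and all gene lists were chosen with earlier results of these data known.

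The expected counts entered the tests as deposited. Genes that passed filterByExpr (13245) were tested with edgeR 4.0.16 (R 4.3.3; TMM factors 0.953, 1.012, 1.02 and 1.018; glmQLFit with legacy set to true, glmQLFTest) and called at a Benjamini-Hochberg adjusted p under 0.05. The test rests on the spread within 2 pairs of libraries (2 residual and 3.41 prior degrees of freedom). It was also run on simulated counts whose spread was capped, and the outcome is not reported here. A negative log2 fold change means lower in the mutant. A gene at 0 was set to a floor of 3 counts per library (0.102 and 0.105 CPM in the mutant), and ratios of counts carry 95% Clopper-Pearson intervals.

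Positions came from GENCODE M21, which matched 55240 of 55426 identifiers and all 69 genes, and promoter windows from RefSeq (GRCm38.p6). Dates stood in place of 27 symbols, which were named from GENCODE. Neighbours are tested genes whose bodies lie within 100 kb; family mates share a symbol stem. Classes are patterns in symbols.

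The text gives values in full for the 15 genes with the highest mean CPM, those at 0 in both mutant libraries, those within 500 kb of another and classes of at least 3; the 3 genes just inside and outside each threshold; the 6 called neighbours with the largest change in each direction and the neighbours of the 15; and, of family mates, the highest in CPM. Not every gene that this rule takes is printed in full, and other genes named with values, Xist among them, were chosen after their values were seen. Alternatives were other scalings, filters, windows and thresholds, DESeq2 1.42.0, limma 3.58.1 on log2 FPKM with pseudocounts of 1 and 0.1, a replicate block and each library left out.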

Additional observations from a re-analysis of the deposited data

How the results depend on the processing

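The thresholds set the number of genes: 14 had a sum of 0 in the mutant, 41 a sum of at most 5, 113 of at most 20 and 192 of at most 50, while 156 met the ceiling at a floor of 20 counts, 35 at 100 and 14 at 200. With MLL-ENL replicate 1 or 2 left out, 85 and 84 genes met the rule, all 69 among them. With MLL-ENL dYEATS replicate 1 or 2 left out, 76 and 73 met it, with 64 of the 69 among them each time. A ceiling kept at its full value would have kept all 69, so the lone mutant library was held to a lower one. Of 2235 genes called, 1350 remained in number with a filter of 5 CPM in 2 libraries, 1466 with limma on log2(FPKM + 1), and 1392 to 9099 with 1 library left out, where the lone sample is assumed to vary like the other pair; leaving out MLL-ENL replicate 1 gave 7465 and leaving out its replicate 2 gave 9099. Neighbours called, 41 with all libraries, were 22 with the 5 CPM filter, 106 within 500 kb and 32 to 121 with 1 library left out (102 and 121 without MLL-ENL replicates 1 and 2). More neighbours were called lower than higher in each of these. Family mates called, 20 with all libraries, were 12 with the 5 CPM filter, 9 and 12 with limma on log2(FPKM + 1) and log2(FPKM + 0.1), and 14 to 71 with 1 library left out (60 and 71 without MLL-ENL replicates 1 and 2). The cause of these shifts was not tested, except that the 5 CPM filter tests fewer genes.

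The replicate numbers are shared between the groups but are not shown to pair the libraries: the deviations of same-numbered libraries correlated at -0.035. With a replicate block 33 of 98 family mates (33.7%) and 49 of 162 neighbours (30.2%) were called, against 3133 of 13245 genes (23.7%). For family mates that is a wider gap than the 20.4% against 16.9% without the block, so their nearness to genes in general depends on this setting. A gene at 0 in both mutant libraries is set to a floor of mutant counts. At 50 counts in each MLL-ENL library its bound therefore cannot lie much above 20-fold. Genes with a mutant count were not set to that floor. Zfp995 (59 and 61 counts against 1 and 0) had a ratio of 127 (95% exact interval 22.3 to 5050). Bounds and ratios are therefore not comparable.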
